A study of Homo sapiens with 6 samples.

Results

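The COPII coat is the protein shell that buds vesicles from the endoplasmic reticulum (ER), and it carries newly made secreted and membrane proteins toward the Golgi. A small GTPase, SAR1, is loaded with GTP at the ER membrane and brings in the inner coat of SEC23 and SEC24, in which SEC24 binds the cargo and SEC23 stimulates GTP hydrolysis by SAR1. SEC13 and SEC31 then form the outer cage. In humans most layers are encoded by several paralogs, and inherited variants of single paralogs cause different disorders. SEC24D variants impair collagen secretion and the skeleton, SEC23A variants craniofacial development, SEC23B variants red cell formation, and SAR1B variants the export of chylomicrons from the intestine.

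The coat was examined in MDA-MB-231, an established human cell line of triple-negative breast cancer, after HMGA1 siRNA (3 arrays) or control siRNA (3 arrays). HMGA1 is a chromatin protein that binds AT-rich DNA, and the design names 3 separate knock-down experiments and 3 control populations. RNA was taken 48 hours after lipid transfection of the siRNA into otherwise untreated cells and hybridized to Affymetrix Human Exon 1.0 ST arrays, which read a transcript with probes along its exons. The labels name the treatment as shRNA as well as siRNA, and siRNA was taken. The coat set has 10 genes, SEC24A, SEC24B, SEC24C, SEC24D, SEC23A, SEC23B, SEC31A, SEC13, SAR1A and SAR1B, out of 14232 genes with a transcript of their own on the array. A gene was measured by the transcript annotated to it alone, and 7 of the 10 had one. The other 3, SEC24A, SEC24C and SEC31A, lie only on transcripts that list another gene too. The set was selected on the difference of SEC24D between HMGA1 siRNA and control siRNA, so that difference is described and not tested.

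All values are log2 expression after RMA, the background correction, normalization and probe summary that the authors used. A difference of 1 is thus a doubling. Brightness depends on the probes, so comparing the levels of different genes does not give their relative amounts of RNA. The median over transcripts lay between 8.28 and 8.38 on the 6 arrays, and arrays correlated at 0.982 to 0.995 over transcripts. The transcript that lists HMGA1 with its pseudogene HMGA1P8 averaged 9.74 ± 0.081 with HMGA1 siRNA and 10.24 ± 0.12 with control siRNA (SD, n = 3 each). The difference was -0.50 (standard error 0.10), or 0.709 of the control level, and the 3 HMGA1 siRNA arrays all read lower than the 3 controls. A transcript annotated APOE;HMGA1 averaged 8.44 ± 0.20 with HMGA1 siRNA and 8.56 ± 0.16 with control siRNA, with overlapping groups and a difference of -0.12 (standard error 0.13). The mesenchymal marker VIM was bright in HMGA1 siRNA and control siRNA cells (12.95 and 12.89), and the hormone receptors ESR1 (6.78 and 6.98) and PGR (5.12 and 5.16) were dim. ERBB2, the other receptor by which triple-negative tumors are defined, read 10.20 and 10.19, and the luminal keratins KRT8 (12.43 and 12.38), KRT19 (11.07 and 10.90) and KRT18 (10.57 and 10.46) were bright. SPARC, listed as a mesenchymal marker, was also dim (6.87 and 6.90). The arrays numbered replicate 3 stood apart from the others in both groups, with EPCAM higher by 1.08 and CDH1 at a difference of -1.71, so results for the coat are also given without them.

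SEC24D read higher on each array of the HMGA1 siRNA group. Its values were 11.00, 11.21 and 11.10 on HMGA1 siRNA replicates 1, 2 and 3, against 10.74, 10.65 and 10.77 on control siRNA replicates 1, 2 and 3. The groups did not overlap, and the lowest HMGA1 siRNA array lay 0.23 above the highest control array. The means were 11.10 ± 0.10 with HMGA1 siRNA and 10.72 ± 0.062 with control siRNA (SD, n = 3 each), a difference of 0.38 (standard error 0.10), or 1.30-fold. Counting SEC24D itself, 72 of the 14232 genes were higher with HMGA1 siRNA by this much or more. Decreases of this size were not counted, and the rank rests on the value that chose the set. The difference was 0.41 without both replicate 3 arrays and lay between 0.33 and 0.43 over 16 other settings of the analysis. Several of these, such as the replicate block and the unmoderated test, cannot change the estimate and returned 0.38. The RNA came from whole cultures, so a change in every cell and a change in some of the cells cannot be told apart.

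**Figure D1:**
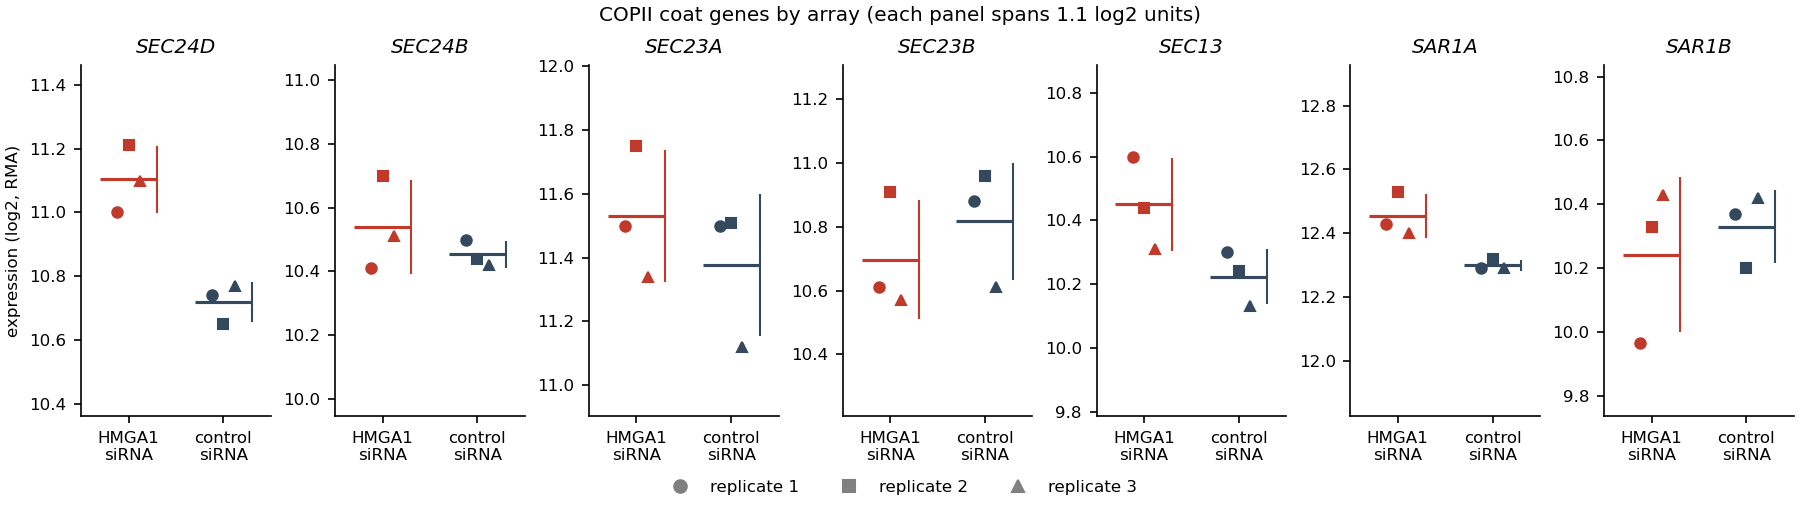
Expression (log2, RMA) of the 7 COPII coat genes with a transcript of their own, 1 panel a gene, by siRNA group. Points are arrays with their replicate number as the marker shape, horizontal bars the means and vertical lines 1 SD either side of the mean. SEC24D, SEC13 and SAR1A are the genes in which the 3 HMGA1 siRNA arrays all lie above the 3 control arrays, and replicate 3 is the lowest array of SEC23A and SEC23B in both groups.

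SEC24B, the other SEC24 paralog with its own transcript, did not separate the groups. It read 10.41, 10.70 and 10.51 with HMGA1 siRNA and 10.50, 10.44 and 10.42 with control siRNA. Replicate 2 was its brightest HMGA1 siRNA array and replicate 1, at 10.41, lay below all 3 controls. The difference was 0.09 (standard error 0.10 in limma, adjusted p = 1.00), and it was 0.010 without HMGA1 siRNA replicate 2 and 0.16 without HMGA1 siRNA replicate 1. Within each array SEC24D exceeded SEC24B by 0.59, 0.51 and 0.59 with HMGA1 siRNA and by 0.24, 0.22 and 0.35 with control siRNA. The gap between these paralogs was therefore wider on every HMGA1 siRNA array, by 0.29 on average, a value that rests on the selected gene and was not tested.

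SEC24A and SEC24C could be followed only on shared transcripts, whose values belong to either annotated gene or to both. The transcript annotated SEC24A;SAR1B read 10.48, 10.86 and 10.48 with HMGA1 siRNA, against 10.41, 10.35 and 10.12 with control siRNA, a difference of 0.31 (standard error 0.14 in limma, adjusted p = 1.00). The transcript annotated SEC24C;POFUT4 read 9.65, 9.75 and 9.59 with HMGA1 siRNA, against 9.55, 9.57 and 9.47 with control siRNA, a difference of 0.13 (standard error 0.091, adjusted p = 1.00). In both, the 3 HMGA1 siRNA arrays read higher than the 3 control arrays, in SEC24C;POFUT4 by a margin of 0.019.

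The SEC23 paralogs, the inner coat partners of SEC24, had differences of opposite sign. SEC23A read 11.50, 11.75 and 11.34 with HMGA1 siRNA and 11.50, 11.51 and 11.12 with control siRNA, a difference of 0.15 (standard error 0.15 in limma, adjusted p = 1.00). SEC23B read 10.61, 10.91 and 10.57 with HMGA1 siRNA and 10.88, 10.96 and 10.61 with control siRNA, a difference of -0.12 (standard error 0.14, adjusted p = 1.00). The groups overlapped in both genes, and neither passed the test. The size of both differences varied with the arrays used. That of SEC23A was 0.022 without control siRNA replicate 3, 0.039 when HMGA1 siRNA replicate 2 was dropped and 0.25 when HMGA1 siRNA replicate 3 was. With 1 array left out that of SEC23B ran from -0.23 (HMGA1 siRNA replicate 2) to -0.052 (control siRNA replicate 2). The replicate 3 array was the lowest of its group in both genes. Set against each other within an array, SEC23A exceeded SEC23B by 0.89, 0.84 and 0.77 with HMGA1 siRNA and by 0.62, 0.55 and 0.51 with control siRNA. The groups of this paralog difference did not overlap. Its means were 0.84 ± 0.058 with HMGA1 siRNA and 0.56 ± 0.058 with control siRNA (SD, n = 3 each), a shift of 0.27, or 1.21-fold. A two-sided exact permutation test gave p = 0.1, the smallest that 3 arrays against 3 can give, and 0.2 adjusted over the 2 paralog pairs tested. Both pairs were chosen after the data had been seen, so these p-values are descriptions. How often other gene pairs separate in this way was not counted.

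**Figure D2:**
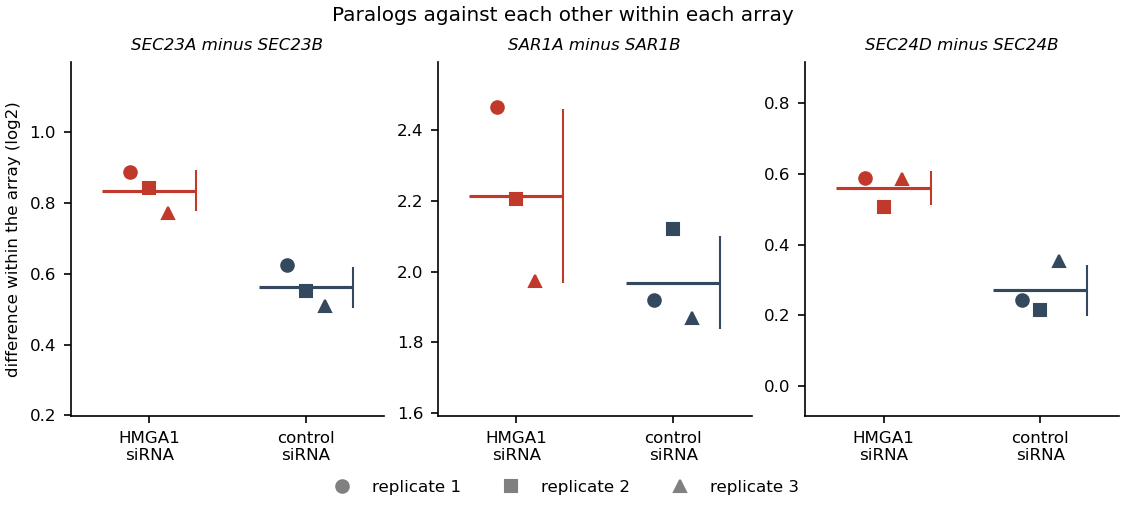
Difference in log2 expression between paralogs within each array (vertical axis), for SEC23A minus SEC23B, SAR1A minus SAR1B and SEC24D minus SEC24B, by siRNA group. Points are arrays, horizontal bars the means and vertical lines 1 SD either side. The HMGA1 siRNA arrays lie above the control arrays for SEC23 (0.77 to 0.89 against 0.51 to 0.62) and for SEC24, where SEC24D chose the set, and the groups overlap for SAR1.

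SEC13, the outer cage subunit that also serves in the nuclear pore, read 10.60, 10.44 and 10.31 with HMGA1 siRNA and 10.30, 10.24 and 10.13 with control siRNA. The 3 HMGA1 siRNA arrays read higher than the 3 control arrays, but by only 0.0086 between HMGA1 siRNA replicate 3 and control siRNA replicate 1. The difference was 0.23 (standard error 0.11), or 1.17-fold, and did not pass the test (limma, adjusted p = 1.00). It was 0.15 without HMGA1 siRNA replicate 1. Its cage partner SEC31A was seen only on the transcript annotated SEC31A;THAP9-AS1, which read 11.92, 12.02 and 12.17 with HMGA1 siRNA, against 11.90, 11.80 and 11.99 with control siRNA. These groups overlapped, with a difference of 0.14 (standard error 0.10, adjusted p = 1.00).

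The GTPase SAR1A, which starts coat assembly, read 12.43, 12.53 and 12.40 with HMGA1 siRNA and 12.29, 12.32 and 12.29 with control siRNA. Its 3 control arrays were nearly equal (SD 0.016), and the lowest HMGA1 siRNA array lay 0.084 above the highest of them. The difference of 0.16 (standard error 0.086), or 1.12-fold, did not pass the test (limma, adjusted p = 1.00). SAR1B, its paralog, read 9.97, 10.33 and 10.43 with HMGA1 siRNA and 10.37, 10.20 and 10.42 with control siRNA, with overlapping groups and a difference of -0.09 (standard error 0.14, adjusted p = 1.00). HMGA1 siRNA replicate 1 was its lowest array, and without that array the difference was 0.048, of the opposite sign. The within-array difference of SAR1A over SAR1B was 2.21 ± 0.25 with HMGA1 siRNA and 1.97 ± 0.13 with control siRNA (SD, n = 3 each). The groups overlapped, and a two-sided exact permutation test of the shift of 0.25 gave p = 0.2 (0.2 adjusted over the 2 pairs).

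**Figure D3:**
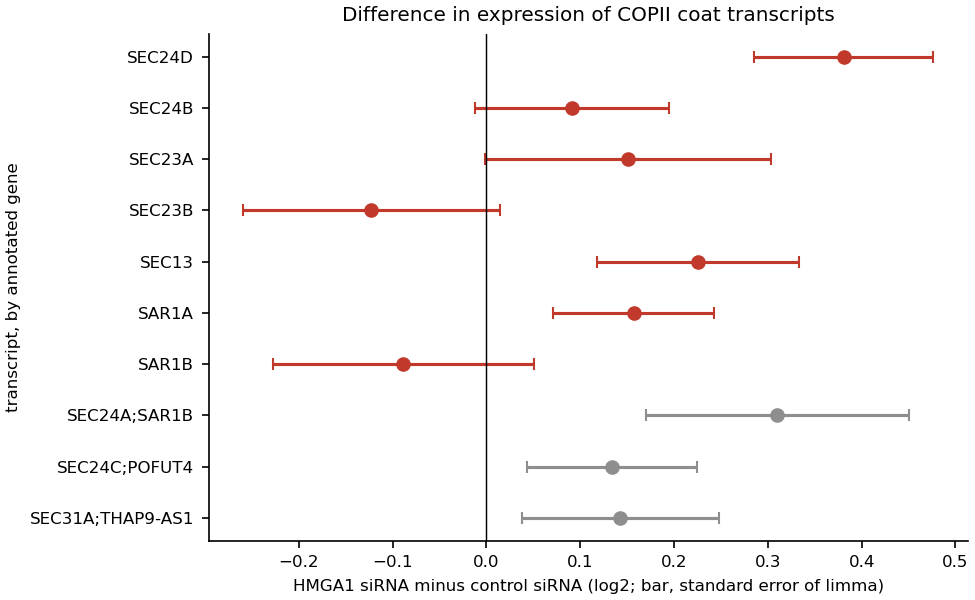
Difference in expression, HMGA1 siRNA minus control siRNA (horizontal axis, log2), of each COPII coat transcript (vertical axis). Points are estimates over 3 arrays a group and bars 1 standard error from limma, in red for transcripts annotated to a coat gene alone and in grey for those shared with another gene. The estimates run from -0.12 for SEC23B to 0.38 for SEC24D, the gene that chose the set.

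Besides SEC24D, the 6 coat genes with a transcript of their own comprised 4 with a higher and 2 with a lower mean after HMGA1 siRNA, and 0 passed an adjusted p of 0.05. In the same fit 0 of the 22011 transcripts passed (0.0%), and the unmoderated test called 0 too. An unadjusted limma p under 0.05 was found for 728 (3.31%), a smaller share than that threshold. In 2 of the 6 genes, SEC13 and SAR1A, the HMGA1 siRNA arrays all read higher than the controls, and in 0 all lower. Over all transcripts the groups did not overlap in 7.79%, and they were higher with HMGA1 siRNA in 4.28%. Both genes also separated after quantile normalization, after median centring and without both replicate 3 arrays, although the share of all transcripts that separate upward is 13.2% with those arrays left out. The median difference of the 6 genes was 0.12, against -0.019 over all genes. Leaving out HMGA1 siRNA replicate 2 brought the median of the 6 to 0.024, close to the 0.012 over all genes in that setting. Leaving out control siRNA replicate 3 brought the median of the 6 to 0.049, against -0.010 over all genes. All 7 coat genes belonged to the brightest 5th of the genes, whose median difference was 0.036 and of which 9.13% had all HMGA1 siRNA arrays above all controls.

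The coat genes also varied within the groups. On the replicate 3 arrays, set against replicates 1 and 2 with the siRNA group in the fit, 5 coat genes were lower and 2 higher, and 0 of 7 passed the test over all transcripts, of which 0.468% did. SEC23A was at -0.34 (standard error 0.10 in limma, adjusted p = 0.238), with -0.29 within the HMGA1 siRNA arrays and -0.39 within the control arrays. SEC23B was at -0.25 (standard error 0.11, adjusted p = 0.412) and SEC13 at -0.17. SAR1B went the other way, at 0.21 (adjusted p = 0.568), while SEC24D was at 0.03. On the same arrays 3 of 12 luminal and epithelial markers passed the test (EPCAM and KRT19 higher, CDH1 lower), as did 1 of 12 mesenchymal markers (FN1, higher), and their part in the values of the coat genes was not tested. As a description over the 6 arrays, which share the normalization and the siRNA groups, SEC23A and SEC23B correlated at 0.68, and at 0.97 with each group's mean removed. SEC24D and SAR1A correlated at 0.92, and at 0.53 with the group means removed, and SEC24D and SEC24B at 0.68 and 0.83. SEC13 and SAR1B ran against each other, at -0.74 and -0.84.

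**Figure D4:**
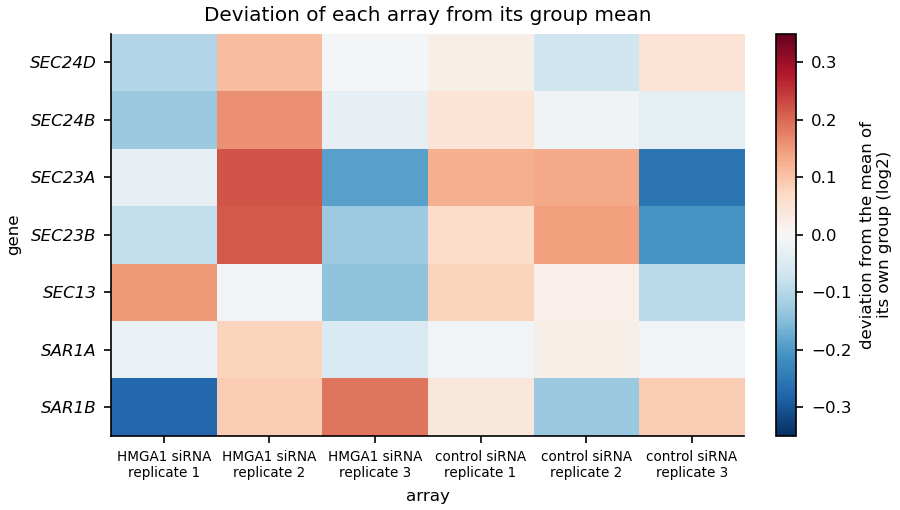
Deviation of each array from the mean of its own siRNA group (colour, log2) for the 7 COPII coat genes (vertical axis) on the 6 arrays (horizontal axis). Red is above the group mean and blue below it. SEC23A and SEC23B share their pattern, with replicate 3 low in both groups, and SAR1B has its lowest value on HMGA1 siRNA replicate 1.

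The genes whose expression followed SEC24D most closely over the 6 arrays were TMEM267 (Pearson r = 0.996), the phospholipase PLD1 (0.989), the matrix protein EFEMP1 (0.984), the mucin-type glycosyltransferase GALNT7 (0.980) and the deubiquitinase OTUD4 (0.979), out of 7115 genes that varied enough to be compared. They were chosen for following SEC24D, so their group differences, from 0.25 for EFEMP1 to 0.44 for TMEM267, follow from that choice and are given as descriptions.

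The promoters of the coat genes were searched for motifs known from ER stress response genes, so that members with higher and lower values can be set beside their sequences. RefSeq promoters (GRCh38.p14) from 250 bases before to 50 after each annotated start matched 9 of the 10 coat genes, all but SEC24D, with 14 windows. The letters TGACGTGG occurred on either strand in 2 of the 9 genes, SEC24A and SEC23A, and in 0.927% of the 27305 genes with a window. The core CCACG occurred in 9 of 9 and in 42.1% of all genes, and CCAAT in 3 of 9 (SEC23B, SEC31A and SAR1B) and in 39.7%. The shares over all genes given here were not matched for base content or for windows per gene. The 14 coat windows held from 54.3% (SEC24C) to 75.7% (SEC24B) G or C, and the 27305 genes had 35116 windows. Enrichment of the letters was therefore not tested. The letters GACGTGGC, which overlap TGACGTGG, hold the complement of CCACG and were chosen after the promoters had been read, occurred in 5 of 9 coat genes and in 1.26% of all genes. Since the letters were picked from these same promoters, their count in the coat genes is a description, and a link to expression was not tested. The surroundings of the letters are shown for all 5 genes. Each is written 5′ to 3′ on the strand of the gene, with the motif or its complement in capitals.
SEC13: cgccgggagctGCCACGTCcgagacctgga
SAR1A: gttccggcgctGCCACGTCtcgcgcggtca
SEC23A: cccctcctcttGACGTGGCagaggcggcgc
SEC24A: tgagagtcggtGACGTGGCggcgaggccgg
SEC24C: cccgaaatgcaGACGTGGCagaagaagtgg
In GRCh38.p14 these lie at chr3:10321071-10321100 on the minus strand (SEC13), chr10:70170697-70170726 on the minus strand (SAR1A), chr14:39103220-39103249 on the minus strand (SEC23A), chr5:134648596-134648625 on the plus strand (SEC24A) and chr10:73744288-73744317 on the plus strand (SEC24C). The motif began at position -201 from the annotated start of SAR1A, -178 of SEC24A, -73 of SEC24C, -3 of SEC23A and, for the starts of SEC13, -48 and 23. Binding of a factor was not measured, and a match is a description of the letters alone.

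The regulators of the coat had differences from -0.06 to 0.29. Of 14 COPII regulators and exit site factors, 10 had a transcript of their own, 7 higher and 3 lower with HMGA1 siRNA, with a median difference of 0.035 and 0 past the test. TFG, which organizes exit sites and joins the coat to the next compartment, ranged from 11.01 to 11.29 with HMGA1 siRNA and from 10.76 to 10.96 with control siRNA. Its difference was 0.29 (standard error 0.11). In the deposited values its groups did not overlap, 1 gene of the 10, where 7.79% of all transcripts separated. The number higher on all HMGA1 siRNA arrays was 2 of 10 after quantile normalization and 3 of 10 after median centring. Of all transcripts 4.17% and 4.73% separated upward in these settings. The SAR1 exchange factor PREB was at 0.05 and MIA2, an organizer of cargo export, at 0.09. SEC23IP, which binds SEC23, was at -0.06 and SEC31B at -0.02.

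The COPI coat, which returns proteins from the Golgi to the ER, had the highest median of the 6 lists examined. Of 17 listed genes 13 were measured, 12 higher and 1 lower with HMGA1 siRNA, where 43.5% of all genes were higher. The median difference was 0.09, and 0 genes passed the test. In 6 of the 13 all HMGA1 siRNA arrays read higher than all controls, where 4.28% of all transcripts and 9.13% of the brightest 5th of the genes did. These were ARF4, a GTPase of the early Golgi (0.23), the coat subunits COPB2 (0.21), COPA (0.17), COPB1 (0.15) and COPG1 (0.13), and GBF1 (0.10), the exchange factor that loads ARF GTPases. ARFGAP2 was at 0.02 and COPE at -0.02. Of the 13, 11 belonged to the brightest 5th of the genes, of which 63.2% were higher. The number of separating genes was 5 after quantile normalization and 4 after median centring, where 4.17% and 4.73% of all transcripts separated upward. Without both replicate 3 arrays it was 8, in a setting where 13.2% of all transcripts did. The number of COPI genes higher was 12, 13 and 11 in these settings, where 6391, 7073 and 6620 of all 14232 genes were higher.

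**Figure D5:**
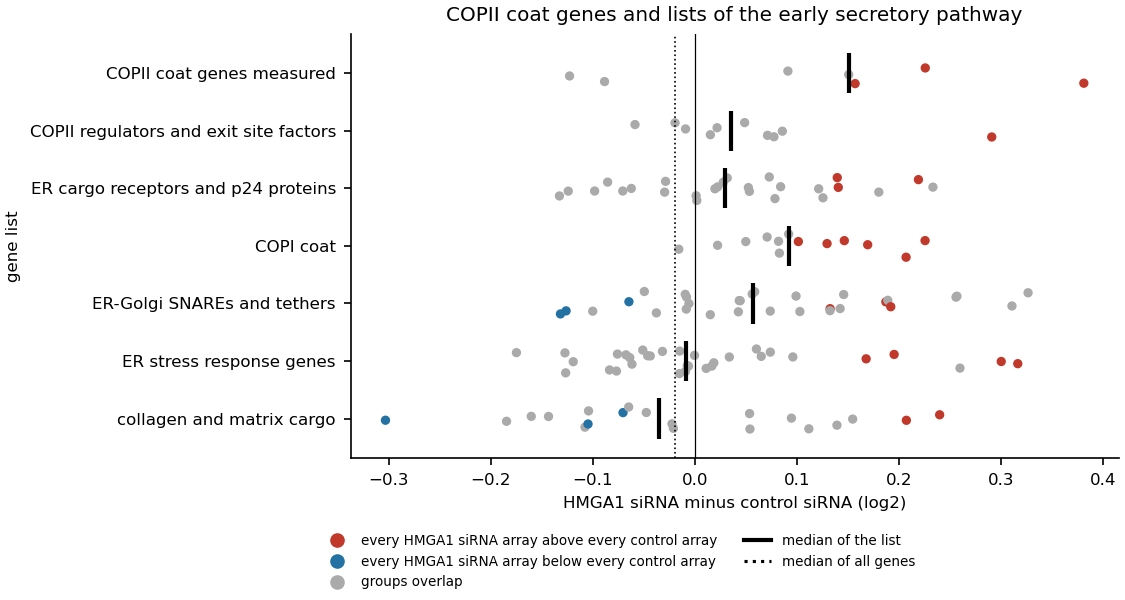
Difference in expression, HMGA1 siRNA minus control siRNA (horizontal axis, log2), of the measured genes of the COPII coat and of 6 lists of the early secretory pathway (vertical axis). Each point is a gene, red where all HMGA1 siRNA arrays lie above all controls, blue where all lie below and grey where the groups overlap, with heavy bars for the list medians and a dotted line for the median of all genes (-0.019). The COPI coat has 12 of 13 points above 0, and the COPII coat row includes SEC24D, which chose the set.

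Among ER cargo receptors and p24 proteins, which pick cargo for the vesicles, 26 of 32 were measured, 18 higher and 8 lower, with a median of 0.03. Of the 26, 20 belonged to the brightest 5th of the genes, of which 63.2% were higher, with a median of 0.036. Over all genes 43.5% were higher. The median of the list was 0.011, with 14 higher, without HMGA1 siRNA replicate 2, and 0.075 without HMGA1 siRNA replicate 1. Over all genes the medians in these settings were 0.012 and -0.045. KDELR3, a receptor that retrieves ER proteins, ranged from 11.33 to 11.49 with HMGA1 siRNA and from 11.08 to 11.31 with control siRNA, a difference of 0.22. YIPF5 was at 0.23 with overlapping groups, and the p24 protein TMED2 at -0.12 and LMAN1L at -0.13. Of the SNAREs and tethers that receive the vesicles, 30 of 37 were measured, 20 higher and 10 lower, or 24 and 6 after median centring. After that centring 7073 of all 14232 genes were higher. The median in the deposited values was 0.06. Of the 30, 12 belonged to the brightest 5th and 13 to the next 5th, of which 57.0% were higher. With 1 array left out the median of the SNAREs and tethers ran from 0.034 (control siRNA replicate 3) to 0.10 (control siRNA replicate 1). SCFD1, which guides SNARE assembly, was at 0.33 and the SNARE BET1 at 0.31, both with overlapping groups. On the replicate 3 arrays BET1 was at -0.54 against the others. The lowest of the list, TRAPPC5 and SCFD2, were at -0.13 each. No gene of these lists passed the test.

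The ER stress response list, which holds known regulators of the secretory machinery, had 33 of 36 genes measured, 13 higher and 20 lower, with a median of -0.0092. Over all genes 43.5% were higher, with a median of -0.019. After median centring 19 of the list were higher and its median was 0.0092, where 7073 of all 14232 genes were higher (median -0.0011). Without HMGA1 siRNA replicate 1 the values of the list were 22 and 0.030, where 5680 of all genes were higher (median -0.045). CREB3L2, a membrane-bound transcription factor that regulates sec23a and sec24d in zebrafish, averaged 12.17 ± 0.10 with HMGA1 siRNA and 11.87 ± 0.091 with control siRNA (SD, n = 3 each). Its difference was 0.30, and its relative CREB3L1, a regulator of collagen genes, was at 0.32. The groups overlapped in neither, and neither passed the test (limma, adjusted p = 1.00). In this list 4 of 33 genes had all HMGA1 siRNA arrays above all controls, and 0 had all below. Of all transcripts 4.28% separated upward. In the brightest 5th of the genes, which held 19 of the 33, 9.13% did. ATF4 was at -0.17 and PPP1R15A, which restores translation after stress, at -0.13. Of the collagen and matrix cargo 20 of 22 genes were measured, 8 higher and 12 lower, with a median of -0.04. This balance varied with single arrays. Without HMGA1 siRNA replicate 2, 14 were higher (median 0.018). In that setting all genes also shifted, from 6195 to 7890 of 14232 higher (median 0.012). When control siRNA replicate 3 was dropped, 12 of the list were higher (median 0.024), where 6506 of all genes were (median -0.010). Without both replicate 3 arrays the median of the list was 0.0038, against -0.0088 over all genes. The collagen chain COL4A2 was at -0.30, with all HMGA1 siRNA arrays below the controls, and COL6A3 at -0.18. LAMC1, a laminin chain, was at 0.24 and COL12A1 at 0.21, both with all HMGA1 siRNA arrays above the controls. In this list 2 of 20 genes separated upward and 3 of 20 downward, where 4.28% and 3.51% of all transcripts did. Of the brightest 5th of the genes, which held 7 of the 20, 9.13% separated upward and 5.06% downward.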

How the data were processed

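Log2 expression values of 22011 transcripts on 6 arrays were taken from the 1 table that the authors deposited. Per the labels they were made with RMA in the oligo package, with hg18 and limma also named and no versions given. RMA compresses the differences of dim transcripts. No values were scaled further, no pair of arrays held identical values, and 0 columns of other samples were present. The number of arrays limits the precision.

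The 2-sided moderated test of limma 3.58.1 (R 4.3.3) compared the groups without covariates. Its p-values were adjusted over the whole table by Benjamini-Hochberg, and 0.05 was the threshold. Of 14432 transcripts with 1 gene symbol, 14404 matched a current RefSeq gene. Several genes share 2408 others, and the remaining 5171 are not named. The transcript of the highest mean stood for a gene. The replicate 3 arrays were set apart by a term in the fit. Paralog pairs were compared by exact permutation in scipy 1.17.1, and figures were drawn with matplotlib 3.10.9. Only the limma comparison of the groups was tested on simulated data, with independent noise and planted differences larger than those of the coat genes.

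The members and lists were chosen with earlier results of these data known. The named genes are the members, HMGA1, the 2 highest and 2 lowest differences of each list and the 5 genes most like SEC24D, overall and with group means removed. COPI genes whose groups do not overlap, PREB and the cell markers were named besides. Alternatives were median centring, quantile normalization, a filter that removed the dimmest 40%, the replicate number as a block, a robust trended prior, a term for replicate number 3 or leaving out its arrays, array weights, each array left out, the mean over a gene's transcripts, no moderation and a threshold of 0.10. The paralog pairs, the split of genes by brightness, the counts of separating genes by setting and the motif GACGTGGC were chosen after seeing the data.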

Additional observations from a re-analysis of the deposited data

How the results depend on the processing

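None of the 6 coat genes besides SEC24D passed the test in any other setting that gave one. The direction of SEC24B, SEC23B, SEC13 and SAR1A was kept in all 16 other settings. Several of these settings, such as the replicate block and the unmoderated test, cannot change the estimate. The mean over a gene's transcripts gave values with no test. With array weights SEC23A was at -0.094, SAR1B at 0.12 and the within-array difference SAR1A minus SAR1B at -0.018, each of the opposite sign, and 198 transcripts passed, none of these 6 genes among them. In the same fit SEC23B was at -0.31 (adjusted p = 0.0839 from limma, under the other threshold of 0.10, in a range of 0.0839 to 1.00 over settings) and SEC13 at 0.085. That fit gave HMGA1 siRNA replicate 3 a weight of 6.80 and the other arrays 0.275 to 2.21. The count was 0 in every other setting, a threshold of 0.10 included. With 1 array left out SAR1B ran from -0.18 (without HMGA1 siRNA replicate 3) to 0.048 (without HMGA1 siRNA replicate 1). The median of the COPII regulators was 0.054 after median centring and 0.015 after quantile normalization, and with 1 array left out it ran from 0.017 (HMGA1 siRNA replicate 1) to 0.058 (control siRNA replicate 1). Leaving out 1 array, the median of the COPI coat ran from 0.097 to 0.13 (without HMGA1 siRNA replicate 3) and that of the ER stress genes from -0.051 (without HMGA1 siRNA replicate 2) to 0.030 (without HMGA1 siRNA replicate 1). With 1 array left out the median over all genes ran from -0.045 (without HMGA1 siRNA replicate 1) to 0.012 (without HMGA1 siRNA replicate 2). The collagen median was 0.0052 with array weights. The cause was not tested. Same-numbered arrays deviated together at r = -0.20, 0.26 and 0.53 for replicates 1, 2 and 3, so the numbers were not taken as pairs. With the replicate block 0 transcripts passed, and SEC13 was at 0.23 (standard error 0.080, adjusted p = 0.948 from limma), with no call changed. Differences near the standard errors of about 0.09 to 0.15 could not be resolved with 3 arrays a group.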

Other observations

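With each group's mean removed, the genes closest to SEC24D over the 6 arrays were NDUFAF1, an assembly factor of respiratory complex I (r = 0.999), the mRNA decapping enzyme DCP2 (0.993), GALNT7 (0.991), GBP3 (0.984) and the transcriptional corepressor NAB1 (0.982). They were picked as the highest of 7115 genes over only 6 arrays, so their r values follow from that choice and are descriptions. GALNT7 was in both sets of 5. NDUFAF1 averaged 7.44 ± 0.25 with HMGA1 siRNA and 7.45 ± 0.16 with control siRNA (SD, n = 3 each), and DCP2 averaged 9.07 ± 0.17 with HMGA1 siRNA and 8.78 ± 0.11 with control siRNA.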
